A study of Mus musculus with 11 samples.

Results

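The 7 mouse genes described here encode the inhibitors of cyclin-dependent kinases (CDKs): *Cdkn1a*, *Cdkn1b* and *Cdkn1c* of the Cip/Kip family, and *Cdkn2a*, *Cdkn2b*, *Cdkn2c* and *Cdkn2d* of the Ink4 family. They were chosen by symbol as the complete set of both families, and all 7 were found among the 53801 genes counted. CDKs bound to cyclins drive a cell through its division cycle. Ink4 proteins bind CDK4 and CDK6 and keep D-type cyclins off them, whereas Cip/Kip proteins act on complexes that already hold a cyclin, above all those of CDK2. In the embryonic brain these inhibitors are known for taking neural progenitors out of the cycle as they differentiate.

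Total RNA came from neuroprogenitor cell (NPC) cultures of E13.5 embryo brains on a mixed C57BL/6 and 129SV background, grown with EGF and bFGF, and all cultures carried 2 floxed alleles of *Smg6*, which encodes an endonuclease of nonsense-mediated mRNA decay. Ctr cells (3 embryos, SMH_128, SMH_132 and SMH_133 in the labels) also carried 1 copy of the tamoxifen-activated recombinase CreER at the Rosa locus and received no 4-hydroxytamoxifen (4-OHT). Ctr + 4-OHT cells (4 embryos, SMH_125, SMH_126, SMH_129 and SMH_131) had no CreER and received 1 µM 4-OHT, and *Smg6*-iKO cells (4 embryos, SMH_127, SMH_128, SMH_132 and SMH_133) had CreER and the same 4-OHT. The labels give 3 days of incubation and place the analysis 6 days after its start. SMH_128, SMH_132 and SMH_133 thus gave a Ctr and an *Smg6*-iKO library each, while *Smg6*-iKO and Ctr + 4-OHT shared no embryo and differed in CreER as well as in the deletion. Values of single libraries are always given in the order in which the embryos of their group are listed here, and *Smg6*-iKO values set beside Ctr leave out SMH_127, which has no Ctr library. The Rosa locus drives CreER in every cell type of the culture.

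Gene counts summed to 26418249 to 33756875 reads in a library. Summed RPKM (reads per kilobase of exon and per M reads counted) of 6 neural progenitor markers were between 1617 and 2134, and those of 4 microglia markers and 2 globin genes did not exceed 0.436 and 0.0779. *Esr1*, of which CreER holds a part, had between 3.89 and 4.71 CPM (counts per M counts) in the 7 CreER libraries and at most 0.283 CPM in the 4 others. *Smg6* itself had between 62.3 and 71.9 CPM in *Smg6*-iKO, between 66.5 and 72.3 CPM in Ctr + 4-OHT and between 69.4 and 79.4 CPM in Ctr. Its log2 fold change in *Smg6*-iKO was -0.059 (SE 0.066, edgeR adjusted p = 0.703) against Ctr + 4-OHT and -0.17 (SE 0.071, edgeR adjusted p = 0.148) against Ctr. With the embryo as a block, a fit whose estimate comes from the 3 embryos that gave both libraries, *Smg6* was called lower than in Ctr, by 0.15 (SE 0.049, edgeR adjusted p = 0.0430). These counts cover all exons of the gene, do not separate the floxed part, and do not check the deletion.

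Cip/Kip transcripts were the most abundant of the 7 genes in NPCs, and transcripts of the *Cdkn2a* and *Cdkn2b* locus the rarest. Over the 11 libraries *Cdkn1a*, encoding the p53-induced inhibitor p21, ranged from 48.0 to 106 RPKM (median 86.5). *Cdkn1b*, encoding p27, ranged from 47.0 to 81.1 RPKM (median 59.8), and *Cdkn1c*, encoding the imprinted p57, from 29.2 to 63.1 RPKM (median 39.3). Among Ink4 genes, *Cdkn2d*, encoding p19-Ink4d, ranged from 21.9 to 33.3 RPKM (median 27.6) and *Cdkn2c*, encoding p18-Ink4c, from 14.8 to 23.5 RPKM (median 20.7). *Cdkn2b*, encoding p15-Ink4b, ranged from 2.81 to 6.57 RPKM (median 3.86), and *Cdkn2a*, encoding p16-Ink4a and, from another first exon, p19-Arf, from 0.784 to 1.59 RPKM (median 1.12).

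The order of the levels was the same in 9 of 11 libraries, namely *Cdkn1a*, *Cdkn1b*, *Cdkn1c*, *Cdkn2d*, *Cdkn2c*, *Cdkn2b* and *Cdkn2a* from high to low. The exceptions were Ctr + 4-OHT embryos SMH_125 and SMH_131, in which *Cdkn1b* exceeded *Cdkn1a*. Within a library *Cdkn1a* had between 0.810 and 1.8 times the RPKM of *Cdkn1b*, so these neighbours were not separated by more than their spread. *Cdkn1b* had between 1.06 and 1.75 times the RPKM of *Cdkn1c*, *Cdkn1c* between 1.11 and 2.21 times that of *Cdkn2d*, and *Cdkn2d* between 1.23 and 1.77 times that of *Cdkn2c*, always on the same side although their ranges over libraries overlapped. A clear step followed, since *Cdkn2c* had between 2.25 and 8.36 times the RPKM of *Cdkn2b*, and *Cdkn2b* between 3.09 and 4.55 times that of *Cdkn2a*.

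**Figure D1:**
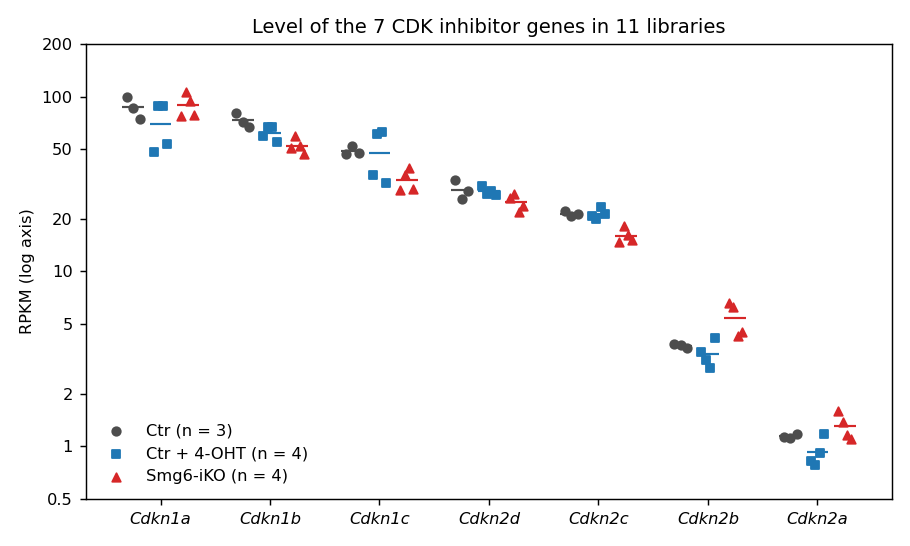
RPKM of each CDK inhibitor gene on a log axis, with 1 point per library and a bar at the mean of Ctr (n = 3), Ctr + 4-OHT (n = 4) and *Smg6*-iKO (n = 4). Cip/Kip genes lie at the top, *Cdkn2d* and *Cdkn2c* in the middle, and *Cdkn2b* and *Cdkn2a*, with medians of 3.86 and 1.12 RPKM, far below in every group.

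*Cdkn2a* rested on 24 to 64 counts per library, which carry 95% exact Poisson intervals of 15.4 to 35.7 and 49.3 to 81.7 counts (counting error only), whereas the other 6 genes had at least 114 counts in every library. Its counts sum the Ink4a and Arf transcripts, which share exons. *Cdkn2a* (ENSMUSG00000044303) lies on chromosome 4 of GRCm38 from 89274471 to 89294653 and *Cdkn2b* (ENSMUSG00000073802) beside it from 89306289 to 89311032. *Cdkn2c* (ENSMUSG00000028551) lies elsewhere on chromosome 4, from 109660876 to 109667189, and *Cdkn2d* (ENSMUSG00000096472) on chromosome 9 from 21288410 to 21291407. *Cdkn1a* (ENSMUSG00000023067) lies on chromosome 17 from 29090979 to 29100722, *Cdkn1b* (ENSMUSG00000003031) on chromosome 6 from 134920401 to 134925513, and *Cdkn1c* (ENSMUSG00000037664) on chromosome 7 from 143458339 to 143461050. *Cdkn1c* overlaps the antisense gene *Gm44732*, which had 7 to 19 counts per library under stranded counting.

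Promoters differed between members in the motifs they hold. RefSeq promoters (GRCm38.p6, 250 bases before to 50 bases after each start) covered 6 of the 7 genes with 9 starts, *Cdkn1c* not being among them. A p53 consensus site with at most 1 of its 20 bases off, in capitals, began 51 bases before the upstream start of *Cdkn1a*, on the plus strand at chr17:29090923-29090952, and such a site was found in 0.0883% of 32851 promoters, both strands searched. The tolerance of 1 base was chosen after the search with no base off, which found a site in 3 promoters and in none of these genes. The E2F motif TTCCCGC, in capitals, which factors of the Rb pathway bind, began 25 bases before a *Cdkn2c* start (minus strand, chr4:109666763-109666792) and 98 bases before the Arf start of *Cdkn2a* (minus strand, chr4:89294699-89294728). This motif was found in 4.6% of promoters and overlapped no other motif searched. *Cdkn1b*, which was called lower against Ctr, had a match to neither of these 2 motifs, and a link between motif and change was not tested. The windows below were picked with the results known, *Cdkn2c* having fallen in *Smg6*-iKO while *Cdkn1a* and *Cdkn2a* did not pass the test.
Cdkn1a: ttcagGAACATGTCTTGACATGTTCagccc
Cdkn2c: ggggcccggccTTCCCGCtcccgcggcgcc
Cdkn2a: tctgggaagctTTCCCGCgcgactggggac
The GC box GGGCGG, found in 35.7% of promoters, was present at 7 of the 9 starts and in each of the 6 genes, and the TATA box TATAAA, found in 13.6%, at none of them. A match is a description of the letters in these windows and not a measured binding site.

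The first comparison set *Smg6*-iKO against Ctr + 4-OHT, so that both arms had received 4-OHT. *Cdkn2c* was the one inhibitor that passed the test, with a fall of 0.41 on the log2 scale. By edgeR's quasi-likelihood test with Benjamini-Hochberg adjustment over all genes, 1 of 7 inhibitors was called, lower, beside 1.17% of the 17558 genes tested (0.416% lower). The values of the other 6 pointed in both directions and did not pass the test, as the plot of fold changes shows. Before adjustment 6 of 7, *Cdkn1a* being the exception, had a p under 0.05, beside 16.7% of genes.

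*Cdkn2c* had 39.8, 48.8, 43.2 and 40.5 CPM in *Smg6*-iKO. It had 55.5, 53.8, 63.0 and 57.3 CPM in Ctr + 4-OHT. All *Smg6*-iKO libraries lay below all Ctr + 4-OHT libraries, with the embryo SMH_128 library nearest to them. The log2 fold change was -0.41 (SE 0.079, edgeR adjusted p = 0.0409), and the two-sided exact permutation test gave p = 0.0286, the smallest value that 4 against 4 libraries allow. Non-overlap in this direction held for 5.99% of genes tested. The call was lost in 7 of the 8 fits that left out 1 library (adjusted p from 0.0304 to 0.135), and was kept only without *Smg6*-iKO embryo SMH_128. p18-Ink4c is known from dividing neural progenitors, and in bulk RNA a smaller number of cells that hold a transcript and less RNA per cell cannot be told apart.

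*Cdkn2b* had 9.16, 8.73, 5.93 and 6.30 CPM in *Smg6*-iKO, and 4.80, 4.37, 3.91 and 5.79 CPM in Ctr + 4-OHT. The groups did not overlap, but the lowest *Smg6*-iKO library lay close to the highest Ctr + 4-OHT library. Non-overlap with higher *Smg6*-iKO values held for 5.03% of genes tested. On the log2 scale the difference was 0.69 (SE 0.175, edgeR adjusted p = 0.0950; two-sided exact permutation test, p = 0.0286). Without the filter on low counts, with all 11 libraries in one fit and with DESeq2's Wald test *Cdkn2b* was called (adjusted p = 0.0250, 0.0449 and 0.0103), beside backgrounds of 1.16%, 2.67% and 6.06% of genes, and over 13 alternatives its adjusted p ran from 0.0103 to 0.225. Summed RPKM of 5 mesenchymal markers, including collagen genes, were 74.1 in *Smg6*-iKO embryo SMH_127, the library with the highest *Cdkn2b*, and between 12.4 and 46.4 in the 10 others. The part of such cells in the *Cdkn2b* difference was not tested. Without embryo SMH_127 the log2 fold change was 0.57 (edgeR adjusted p = 0.225).

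*Cdkn2a* had 1.87, 1.61, 1.37 and 1.30 CPM in *Smg6*-iKO, and 0.968, 0.919, 1.07 and 1.38 CPM in Ctr + 4-OHT. The groups overlapped through Ctr + 4-OHT embryo SMH_131, and the log2 fold change of 0.51 (SE 0.190, edgeR adjusted p = 0.210) did not pass the test. In both genes of the locus embryo SMH_127 was the highest of the 11 libraries. The neighbouring genes *Mtap*, of methionine salvage, and *Dmrta1* were not called, with a log2 fold change of -0.14 for *Mtap* (SE 0.076, edgeR adjusted p = 0.377).

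*Cdkn1a* had 172, 235, 209 and 175 CPM in *Smg6*-iKO, but 107, 196, 197 and 118 CPM in Ctr + 4-OHT. Ctr + 4-OHT libraries thus lay in a low and a high pair, and the high pair lay within the *Smg6*-iKO range. The log2 fold change of 0.37 had a 95% confidence interval from -0.078 to 0.81 (SE 0.200, edgeR adjusted p = 0.391). The value moved with single libraries, to 0.22 and 0.25 without Ctr + 4-OHT embryos SMH_125 and SMH_131 and to 0.50 without either library of the high pair, and over all fits that left out 1 library the adjusted p ran from 0.266 to 0.583. *Cdkn1c* had 59.4, 72.8, 80.1 and 60.3 CPM in *Smg6*-iKO and 72.2, 124, 129 and 65.2 CPM in Ctr + 4-OHT, and its log2 fold change was -0.51 (SE 0.217, edgeR adjusted p = 0.270). Embryos SMH_125 and SMH_131 were again the low pair. In these 2 libraries summed RPKM of 5 neuronal markers were 567 and 497, beside 375 and 271 in embryos SMH_126 and SMH_129, and those of 16 p53 target genes other than *Cdkn1a* were 398 and 374, beside 529 and 568. The part of cell composition in these pairs was not tested.

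*Cdkn1b* had 232, 272, 238 and 214 CPM in *Smg6*-iKO, and 270, 304, 305 and 251 CPM in Ctr + 4-OHT. Only *Smg6*-iKO embryo SMH_128 lay above the lowest Ctr + 4-OHT libraries, and the log2 fold change was -0.23 (SE 0.087, edgeR adjusted p = 0.221). *Cdkn2d* had 41.2, 43.7, 34.5 and 37.3 CPM in *Smg6*-iKO and 48.5, 43.4, 45.5 and 43.0 CPM in Ctr + 4-OHT. Its log2 fold change of -0.19 (SE 0.079, edgeR adjusted p = 0.252) did not pass the test, and embryo SMH_128 lay within the control range.

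**Figure D2:**
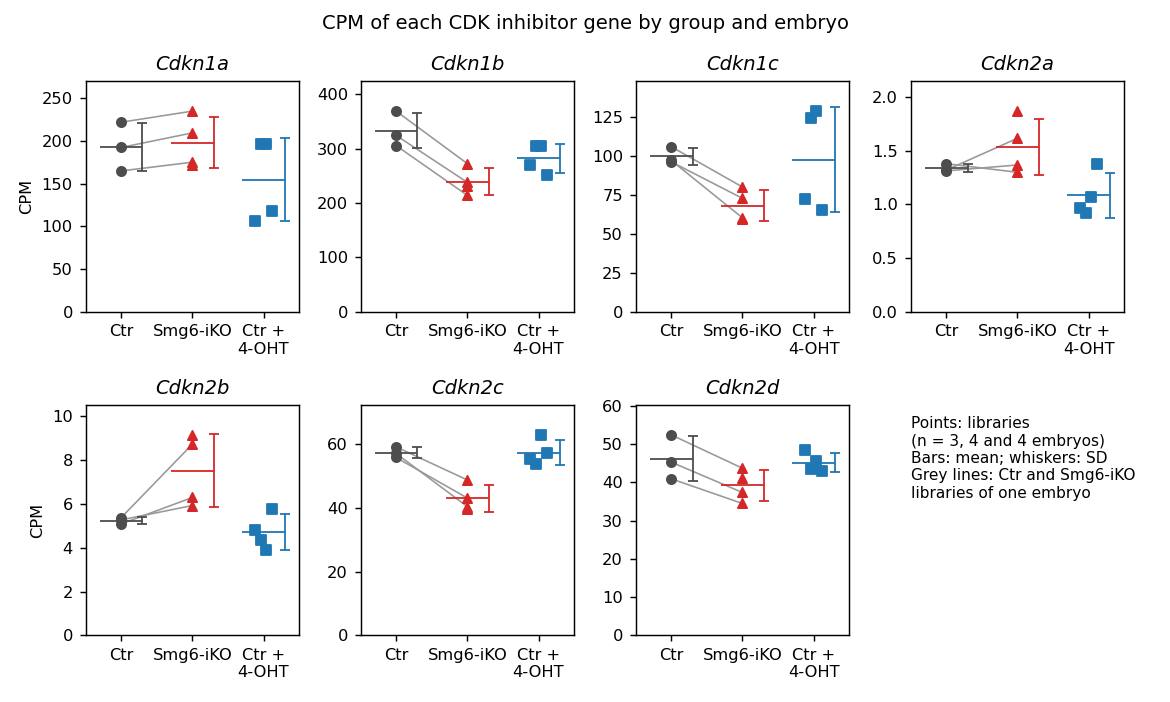
CPM of each CDK inhibitor gene in Ctr (n = 3), *Smg6*-iKO (n = 4) and Ctr + 4-OHT (n = 4), on axes that start at 0, with points for libraries, bars for means, whiskers for SD and grey lines joining the libraries of embryos SMH_128, SMH_132 and SMH_133. All 3 lines fall for *Cdkn1b*, *Cdkn1c*, *Cdkn2c* and *Cdkn2d* and rise for *Cdkn1a* and *Cdkn2b*, and the Ctr + 4-OHT points of *Cdkn1a* and *Cdkn1c* form a low and a high pair.

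The second comparison set *Smg6*-iKO against Ctr, cells of one genotype with and without 4-OHT. Effects of 4-OHT, of the CreER that it activates and of the deletion cannot be told apart here. *Cdkn1b*, *Cdkn1c* and *Cdkn2c* were lower in *Smg6*-iKO, to 0.718, 0.683 and 0.750 times the mean CPM of Ctr, and no inhibitor was called higher. Thus 3 of 7 inhibitors were called, all lower, beside 9.25% of the 17974 genes tested (4.98% lower), and 5 of 7 had an unadjusted p under 0.05, beside 26.9% of genes. With the embryo as a block, 5 of 7 were called beside 21.4% of genes, 4 of them lower (11.2% of genes) and *Cdkn2b* higher (10.3% of genes). This comparison shares its *Smg6*-iKO libraries with the first, so the comparisons are not independent. Its permutation tests exchanged libraries freely and did not keep the embryo pairs, so their p-values make no allowance for the pairing.

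*Cdkn1b* had 369, 324 and 306 CPM in Ctr, and the *Smg6*-iKO libraries of the same embryos had 272, 238 and 214 CPM. It was lower by 26.2%, 26.6% and 29.9% within these embryos, and no *Smg6*-iKO library reached the Ctr range. This was a log2 fold change of -0.48 (SE 0.087, edgeR adjusted p = 0.0101; two-sided exact permutation test, p = 0.0286, the smallest possible for 4 against 3 libraries), and -0.47 with the embryo as a block (SE 0.048, edgeR adjusted p = 3.69e-06). *Cdkn1c* had 96.2, 106 and 97.1 CPM in Ctr and 72.8, 80.1 and 60.3 CPM in the *Smg6*-iKO libraries of these embryos. It was lower by 24.4%, 24.4% and 37.9% within embryos, with a log2 fold change of -0.55 (SE 0.100, edgeR adjusted p = 0.00986; two-sided exact permutation test, p = 0.0571). With all 11 libraries in one fit, in which the spread of Ctr + 4-OHT enters, the *Cdkn1c* call was lost (edgeR adjusted p = 0.150, with 4.39% of genes called).

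*Cdkn2c* had 59.2, 55.9 and 57.2 CPM in Ctr and 48.8, 43.2 and 40.5 CPM in the *Smg6*-iKO libraries of these embryos. It was lower by 17.5%, 22.8% and 29.2% within embryos, and the Ctr and *Smg6*-iKO ranges did not overlap. Its log2 fold change was -0.42 (SE 0.074, edgeR adjusted p = 0.00940; two-sided exact permutation test, p = 0.0571), a call kept in all 7 fits that left out 1 library, as were those of *Cdkn1b* and *Cdkn1c*. Non-overlap with lower *Smg6*-iKO values, which these 3 genes share, held for 11.9% of genes tested.

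*Cdkn2d* had 52.4, 40.9 and 45.3 CPM in Ctr and 43.7, 34.5 and 37.3 CPM in the *Smg6*-iKO libraries of these embryos. The ranges overlapped, although each embryo was lower by a similar amount, 16.6%, 15.8% and 17.5%. The log2 fold change of -0.24 (SE 0.097, edgeR adjusted p = 0.146) became -0.26 with the embryo as a block (SE 0.056, edgeR adjusted p = 0.00296), which passed the test, and over 13 alternatives the adjusted p ran from 0.00296 to 0.477. For *Cdkn1b* and *Cdkn2d*, and for *Cdkn1a*, the embryos took the same order in Ctr and in *Smg6*-iKO. The share of all genes that keep this order was not counted. Within-embryo differences of these genes had SDs of 0.041, 0.015 and 0.022 on the log2 scale (n = 3), while those of the other inhibitors had SDs from 0.11 to 0.27. All 3 pairs were lower for 4 of 7 inhibitors, beside 25.9% of genes tested.

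*Cdkn2b* had 5.37, 5.27 and 5.09 CPM in Ctr and 8.73, 5.93 and 6.30 CPM in the *Smg6*-iKO libraries of these embryos. It was higher by 62.4%, 12.4% and 23.7%, so that the difference in embryo SMH_128 was far above that in the other two. Over all libraries its log2 fold change was 0.52 (SE 0.163, edgeR adjusted p = 0.0684; two-sided exact permutation test, p = 0.0857) and 0.40 with the embryo as a block (SE 0.118, edgeR adjusted p = 0.0218), and DESeq2's Wald test and the fit with no filter on low counts also called it (adjusted p = 0.0244 and 0.00335, beside 16% and 7.57% of genes, with 0.00335 to 0.173 over 13 alternatives). Its ranges did not overlap, as for 11.4% of genes with higher *Smg6*-iKO values, and it was higher in all 3 pairs, as were *Cdkn1a* and 25.8% of genes. Mesenchymal marker sums went from 19.6 to 29.3 RPKM in embryo SMH_128, from 18.8 to 12.4 in embryo SMH_132 and from 27.4 to 25.4 in embryo SMH_133. The part of such cells in this difference was not tested either. *Cdkn2a* had 1.32, 1.31 and 1.38 CPM in Ctr and 1.61, 1.37 and 1.30 CPM in the paired *Smg6*-iKO libraries, with a log2 fold change of 0.21 (SE 0.183, edgeR adjusted p = 0.509).

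*Cdkn1a* had 222, 192 and 165 CPM in Ctr and 235, 209 and 175 CPM in the *Smg6*-iKO libraries of these embryos. Every embryo was slightly higher with 4-OHT, by 5.86%, 8.89% and 6.20%, a smaller step than the one between embryos. The log2 fold change of 0.036 had a 95% confidence interval from -0.23 to 0.30 (SE 0.121, edgeR adjusted p = 0.885), against 0.098 under the embryo block (SE 0.047, edgeR adjusted p = 0.157).

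**Figure D3:**
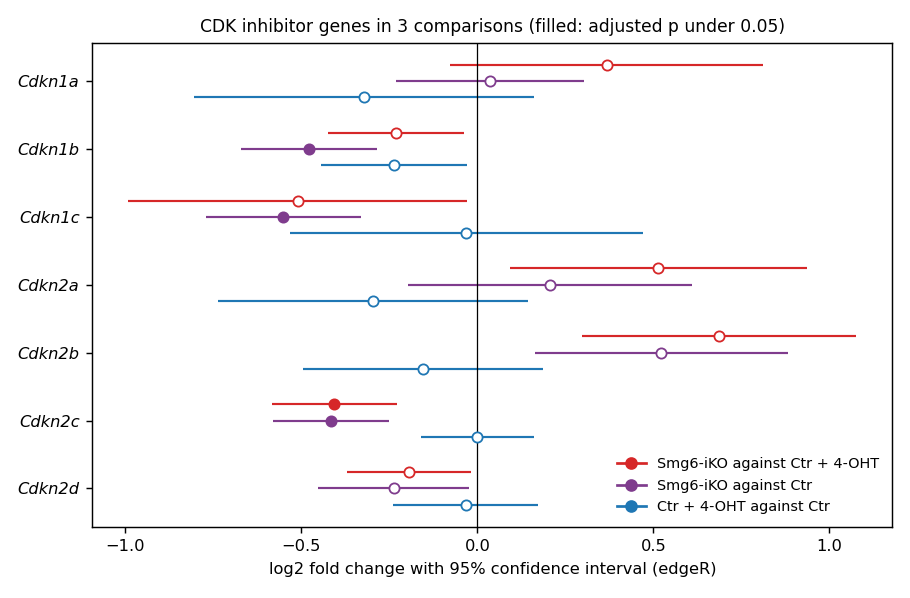
Log2 fold change (points) with 95% confidence intervals (lines) of each CDK inhibitor gene in the 3 comparisons, from edgeR without the embryo block, with filled points at an adjusted p under 0.05. *Cdkn2c* is filled in both comparisons of *Smg6*-iKO, *Cdkn1b* and *Cdkn1c* only against Ctr, and no gene in Ctr + 4-OHT against Ctr.

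The third comparison, Ctr + 4-OHT against Ctr, asked how far 4-OHT and the absence of CreER moved the inhibitors without a deletion. Neither of its groups had both CreER and 4-OHT. None of the 7 was called by edgeR at an adjusted p under 0.05, at which 0.221% of the 17665 genes tested were called, nor by DESeq2's Wald test, which called 1.03% of genes, and 1 of 7, *Cdkn1b*, had an unadjusted p under 0.05, beside 8.28% of genes. *Cdkn2c* had the same mean in both groups, with 57.4 ± 1.67 CPM (SD, n = 3) in Ctr against 57.4 ± 3.99 CPM (SD, n = 4), and its log2 fold change had a 95% confidence interval from -0.16 to 0.16. *Cdkn1b* was the exception in position, since all Ctr + 4-OHT libraries, at 251 to 305 CPM, lay below all Ctr libraries, at 306 to 369 CPM. Its log2 fold change was -0.24 (SE 0.093, edgeR adjusted p = 0.532; two-sided exact permutation test, p = 0.114), and non-overlap with lower values held for 4.91% of genes tested. Over the 3 groups the mean of *Cdkn1b* was 333 ± 32.6 CPM (SD, n = 3) in Ctr. It was 283 ± 26.6 CPM (SD, n = 4) in Ctr + 4-OHT, the middle group, against 239 ± 24.4 CPM (SD, n = 4) in *Smg6*-iKO.

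*Cdkn1a* made up a larger part of all inhibitor transcripts in *Smg6*-iKO than in either control. The RPKM of the 7 genes summed to 265 ± 22.5 (SD, n = 3) in Ctr. The sum was 234 ± 43.2 in Ctr + 4-OHT, and *Smg6*-iKO had 223 ± 24.9 (SD, n = 4 each). *Cdkn1a* made up between 37.5% and 41.5% of this sum in *Smg6*-iKO, between 30.4% and 34.6% in Ctr and between 24.2% and 32.9% in Ctr + 4-OHT. The *Smg6*-iKO range lay above both control ranges, although the CPM of *Cdkn1a* overlapped with both. The share is a ratio, in which lower *Cdkn1b* and *Cdkn1c* raise *Cdkn1a*, and it was not tested.

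The kinases that the inhibitors bind, and their cyclins, are described by class. From here on a call without further words is that of edgeR on the libraries of the 2 groups compared, with TMM scaling and the filter on low counts and without the block. The counts are to be read against the share of all genes called in the same fit. Against Ctr + 4-OHT this was 1.17% (0.416% lower), 6.06% with DESeq2's Wald test, 2.67% in one fit of all 11 libraries and 1.16% with no filter on low counts. Against Ctr it was 9.25% (4.98% lower), 16%, 4.39% and 7.57% in the same order, and 21.4% with the block (11.2% lower). Of 7 genes for CDK1, CDK2 and cyclins A, B and E, which act in S phase and mitosis, 3 were lower against Ctr + 4-OHT (median log2 fold change -0.42, beside 0.012 over all genes) and 5 were lower against Ctr (median -0.44, beside 0.0055). DESeq2's Wald test called 6 in each comparison, one fit of all 11 libraries 5 and 4, and the fit with the embryo as a block all 7 against Ctr. The mitotic kinase gene *Cdk1* fell by 0.42 on the log2 scale against Ctr + 4-OHT (SE 0.076, edgeR adjusted p = 0.0313) and by 0.44 against Ctr (SE 0.059, edgeR adjusted p = 0.00279). The cyclin genes *Ccna2* and *Ccnb1* fell by 0.45 and 0.44 against Ctr + 4-OHT (edgeR adjusted p = 0.0425 and 0.0369). *Cdk2* had a log2 fold change of -0.35 against Ctr + 4-OHT (edgeR adjusted p = 0.0566) and fell by 0.28 against Ctr (edgeR adjusted p = 0.0299). Against Ctr + 4-OHT DESeq2's Wald test called *Cdk2* lower (adjusted p = 0.00125), as did one fit of all 11 libraries and no filter on low counts (edgeR adjusted p = 0.0187 and 0.0179). Its call against Ctr was lost in one fit (edgeR adjusted p = 0.0566). With no filter *Ccnb2* and *Ccne2* were also lower against Ctr + 4-OHT (edgeR adjusted p = 0.0381 and 0.00981), and *Ccne2* against Ctr (edgeR adjusted p = 0.0450). Of the 5 genes for CDK4, CDK6 and D-type cyclins, the partners of Ink4 proteins, none was called in either comparison by edgeR on the 2 groups compared. *Cdk4* had log2 fold changes of -0.23 and -0.15 against Ctr + 4-OHT and Ctr, *Cdk6* of 0.22 and 0.077, *Ccnd1* of 0.097 and 0.17, and *Ccnd2* of 0.043 and 0.070 (edgeR adjusted p from 0.0938 to 0.848). *Cdk4* was called lower against Ctr + 4-OHT by DESeq2's Wald test and with all 11 libraries in one fit (by 0.24 in both, adjusted p = 0.00474 and 0.0464), and *Ccnd1* higher against Ctr with the embryo as a block (0.19, SE 0.056, edgeR adjusted p = 0.0221).

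Of 9 proliferation markers, 2 were lower against Ctr + 4-OHT (0.416% of all genes) and 7 against Ctr (4.98% of all genes), among them *Mki67*, a nuclear protein of cycling cells, which fell by 0.42 and 0.52 on the log2 scale (edgeR adjusted p = 0.0358 and 0.00158), and the replicative helicase subunit *Mcm3*, which fell by 0.33 and 0.35 (edgeR adjusted p = 0.0407 and 0.0136). DESeq2's Wald test called 7 and 8 of the 9 lower, one fit of all 11 libraries 6 and 4, and the fit with the embryo as a block all 9 against Ctr, where upper-quartile scaling lost *Mcm5* and *Pcna* (edgeR adjusted p = 0.0673 and 0.0707). With no filter on low counts *Mcm2*, *Mcm5*, *Mcm6* and *Top2a* were added against Ctr + 4-OHT (edgeR adjusted p from 0.00308 to 0.0250), and *Mcm4* against Ctr (edgeR adjusted p = 0.00952). Of 3 retinoblastoma family genes, whose proteins are released from E2F when CDKs phosphorylate them, none was called against Ctr + 4-OHT, and *Rbl1* fell by 0.24 against Ctr (edgeR adjusted p = 0.0303). Of 10 genes for the degradation of Cip/Kip proteins, none was called against Ctr + 4-OHT by edgeR on the 2 groups compared, while DESeq2's Wald test called *Skp1a*, *Cks1b* and *Skp2* lower there (by 0.26, 0.31 and 0.30, adjusted p = 0.0240, 0.0291 and 0.0315). Against Ctr 2 were lower, *Cks1b* by 0.31 (edgeR adjusted p = 0.0347) and *Skp2*, the ubiquitin ligase subunit that recognises p27, by 0.21 (edgeR adjusted p = 0.0476). The *Skp2* call was lost with upper-quartile scaling, with no filter on low counts and in one fit of all 11 libraries (edgeR adjusted p = 0.0787, 0.0804 and 0.177). With the embryo as a block 5 of 10 were lower, beside 11.2% of genes, the ligase genes *Cul4b*, *Skp1a* and *Dtl* being added at -0.21, -0.18 and -0.16 (edgeR adjusted p = 0.00987, 0.0188 and 0.0387). DESeq2's Wald test called 4 of 10 lower against Ctr, adding *Cul4b* and *Dtl* (adjusted p = 0.0203 and 0.0376), beside 16% of genes called.

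**Figure D4:**
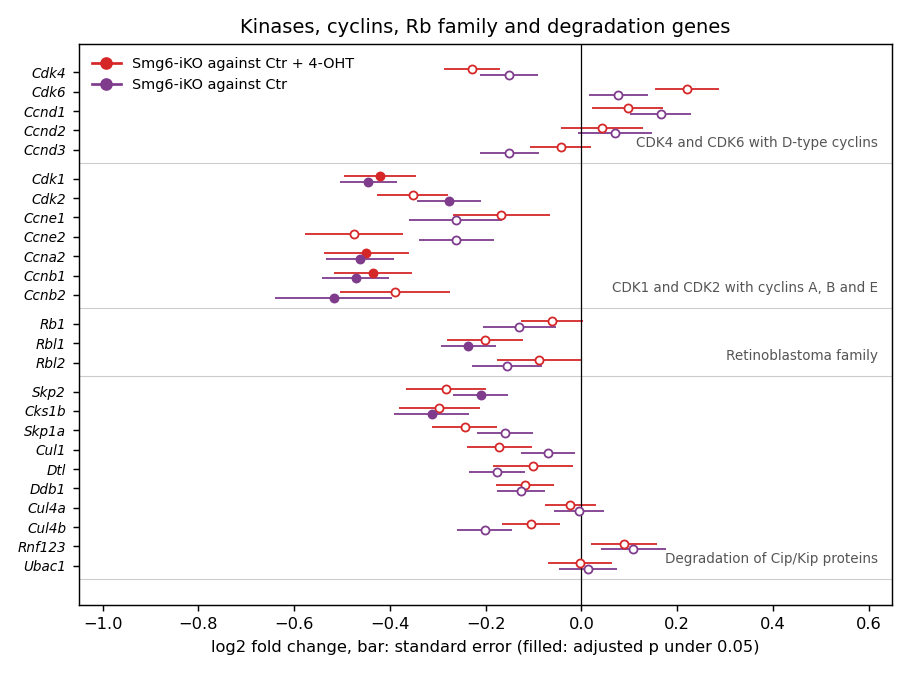
Log2 fold change (points, bars for the standard error) of kinase, cyclin, retinoblastoma family and degradation genes in *Smg6*-iKO against Ctr + 4-OHT and against Ctr, from edgeR without the embryo block, with filled points at an adjusted p under 0.05. *Cdk1*, *Ccna2* and *Ccnb1* are filled in both comparisons, and no gene of the CDK4 and CDK6 class is filled.

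Genes that act upstream of the inhibitors are given as activators and repressors, and in both classes the fit with the embryo as a block added calls against Ctr. Of 12 transcriptional activators, none was called against Ctr + 4-OHT and 3 against Ctr, beside 9.25% of genes, where *Smad4*, which carries TGF-beta signals to *Cdkn2b*, fell by 0.19 and *Sp1* by 0.27, and *Klf4* rose by 0.40 (edgeR adjusted p = 0.0328, 0.0366 and 0.0416). *Trp53*, encoding p53, had log2 fold changes of 0.17 and 0.072 against Ctr + 4-OHT and Ctr (edgeR adjusted p = 0.514 and 0.608). *Foxo3* and *Plagl1* were not called without the block, at -0.067 and 0.11 against Ctr + 4-OHT and -0.075 and -0.19 against Ctr. With the block 5 of 12 were called against Ctr, beside 21.4% of genes, and the genes added were *Plagl1*, an imprinted zinc finger factor, at -0.30 (SE 0.070, edgeR adjusted p = 0.00584) and *Foxo4* at -0.19 (edgeR adjusted p = 0.0251). Of 13 repressors, none was called against Ctr + 4-OHT, and the Polycomb subunit gene *Rnf2* fell by 0.25 against Ctr (edgeR adjusted p = 0.0423). *Bmi1*, which silences the *Cdkn2a* locus, had log2 fold changes of -0.17 and -0.12, *Hmga2* of 0.37 and 0.20, and *Myc* of 0.034 and 0.29, all with an edgeR adjusted p of at least 0.163 in the fit without the block and with the filter. With no filter on low counts *Myc* (0.29) and *Tbx3* (0.98) were called higher and *Ezh2* (-0.20) lower against Ctr (edgeR adjusted p = 0.00636, 0.0279 and 0.0398), and DESeq2's Wald test also called *Ezh2* (adjusted p = 0.0171). With the block 5 of 13 were called against Ctr, beside 21.4% of genes, whereas the 1 of 13 without it stands beside 9.25%. *Myc*, whose product represses *Cdkn1a* and *Cdkn2b*, was higher by 0.30 (SE 0.060, edgeR adjusted p = 0.00200) and was so in all 3 embryos, while *Id1* and the Polycomb subunit genes *Ezh2* and *Suz12* joined *Rnf2* among those lower, at -0.29, -0.23 and -0.16 (edgeR adjusted p = 0.00330, 0.00259 and 0.0231). The calls of *Rbl1*, *Rnf2* and *Smad4* were lost with upper-quartile scaling (edgeR adjusted p = 0.0524, 0.0571 and 0.0543), and that of *Smad4* also with no filter on low counts (edgeR adjusted p = 0.0734). In one fit of all 11 libraries no gene of the retinoblastoma, degradation, activator or repressor lists was called in either comparison of *Smg6*-iKO.

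Of 16 p53 target genes other than *Cdkn1a*, none was called against Ctr + 4-OHT by edgeR on the 2 groups compared (median log2 fold change 0.14, beside 0.012 over all genes) and *Pmaip1*, encoding the death-promoting protein Noxa, rose by 0.46 against Ctr (edgeR adjusted p = 0.0452; median 0.061, beside 0.0055), 1 of 16 beside 9.25% of all genes. *Phlda3*, encoding an inhibitor of Akt, was called higher against Ctr + 4-OHT by DESeq2's Wald test and with no filter on low counts (0.51 and 0.52, adjusted p = 0.0180 and 0.0112), and one fit of all 11 libraries called none of the 16 in either comparison. Against Ctr DESeq2's Wald test added *Perp* and *Phlda3* (adjusted p = 0.0477 and 0.0487), and the fit with no filter added *Phlda3*, *Perp* and *Fas* (edgeR adjusted p = 0.000459, 0.0144 and 0.0237). With the embryo as a block 6 of 16 (*Phlda3*, *Pmaip1*, *Fas*, *Perp*, *Tnfrsf10b* and *Bax*) were called against Ctr, all higher, beside 10.3% of genes, while *Cdkn1a* was not. *Mdm2*, encoding the p53 ligase, had log2 fold changes of 0.13 and 0.036 (edgeR adjusted p = 0.684 and 0.779). In *Smg6*-iKO against Ctr + 4-OHT, 15 of the 16 target genes lay above 0. Between the controls, Ctr + 4-OHT against Ctr, 13 of the 16 lay below 0, with a median of -0.10 and none called. Across libraries *Cdkn1a* was lowest where the summed RPKM of these 16 genes was lowest, at 107 and 118 CPM beside sums of 398 and 374 in Ctr + 4-OHT embryos SMH_125 and SMH_131, and highest at 235 CPM beside a sum of 617 in *Smg6*-iKO embryo SMH_128. Of the imprinted domain around *Cdkn1c*, 5 of 8 genes passed the filter on low counts and none was called in any of the 3 comparisons by edgeR on the 2 groups compared, among them *Kcnq1ot1*, the antisense RNA that silences *Cdkn1c* on one parental allele, at -0.0060 against Ctr + 4-OHT and 0.032 against Ctr (edgeR adjusted p = 0.980 and 0.882). With the embryo as a block *Cd81*, a tetraspanin gene of this domain, was called lower against Ctr, at -0.18 (SE 0.047, edgeR adjusted p = 0.0110), as it was with no filter on low counts at -0.24 (edgeR adjusted p = 0.00776).

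**Figure D5:**
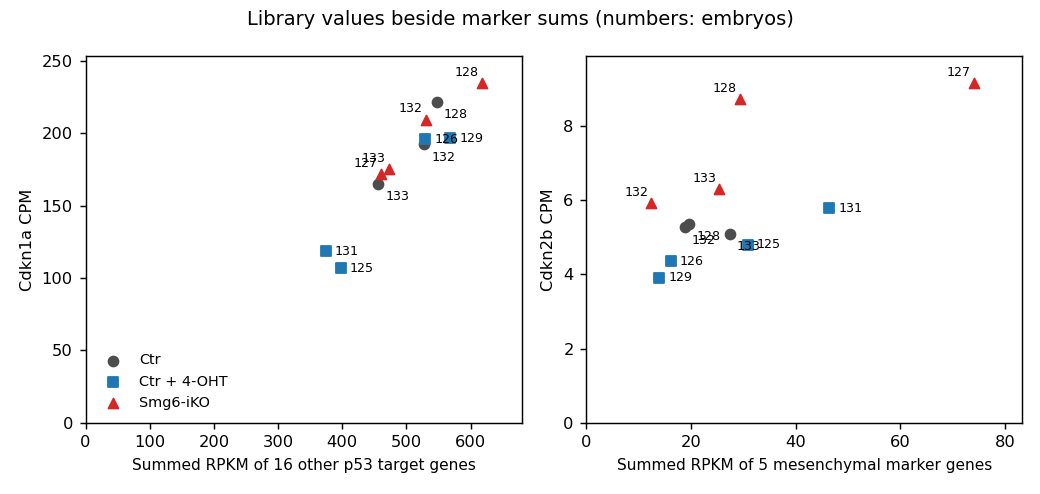
CPM of *Cdkn1a* against the summed RPKM of 16 other p53 target genes (left) and CPM of *Cdkn2b* against the summed RPKM of 5 mesenchymal markers (right), with 1 point per library, numbered by embryo, on axes that start at 0. Ctr + 4-OHT embryos SMH_125 and SMH_131 lie lowest on the left, and *Smg6*-iKO embryo SMH_127 lies far to the right at 74.1 RPKM, whereas *Smg6*-iKO embryo SMH_128 has a similar *Cdkn2b* level at 29.3 RPKM.

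Among cell type markers, none of the tested genes was called against Ctr + 4-OHT by edgeR on the 2 groups compared. *Hes5*, an effector of Notch signalling, was there at -0.69 (edgeR adjusted p = 0.0647), and was called lower with no filter on low counts, by DESeq2's Wald test and in one fit of all 11 libraries (adjusted p = 0.00180, 0.000667 and 0.0498). Against Ctr, 4 of 6 neural progenitor markers were lower, beside 4.98% of genes, with *Hes5*, *Pax6* and *Sox2* falling by 1.28, 0.45 and 0.47 on the log2 scale (edgeR adjusted p = 0.00186, 0.0166 and 0.0223), and *Gfap* of 4 astrocyte markers was higher by 1.32 (edgeR adjusted p = 0.0288), but in one fit of all 11 libraries the calls of *Sox2*, *Fabp7* and *Gfap* were lost (edgeR adjusted p = 0.0784, 0.0552 and 0.284). Between the controls, Ctr + 4-OHT against Ctr, the median of the 6 progenitor markers was -0.18, and *Hes5* was at -0.59 (edgeR adjusted p = 0.401), called lower with no filter on low counts (-0.58, edgeR adjusted p = 0.0100). Of 5 neuronal markers none was called in any of the 3 comparisons by edgeR on the 2 groups compared with TMM scaling and the filter. In *Smg6*-iKO against Ctr, *Tubb3*, *Stmn2* and *Dcx* were called higher with the embryo as a block (0.37, 0.26 and 0.17) and by DESeq2's Wald test (0.41, 0.34 and 0.27). There upper-quartile scaling also called *Tubb3* and *Stmn2* higher (edgeR adjusted p = 0.0378 and 0.0388). The fit with no filter on low counts called *Tubb3*, *Stmn2*, *Dcx* and *Rbfox3* higher there (edgeR adjusted p from 7.26e-08 to 0.0479). The median of the 5 markers was 0.28 in *Smg6*-iKO against Ctr, but also 0.25 in Ctr + 4-OHT against Ctr, and 0.059 in *Smg6*-iKO against Ctr + 4-OHT. None of 4 oligodendrocyte lineage, 3 tested endothelial and 5 mesenchymal markers was called by edgeR on the 2 groups compared. Against Ctr the block added *Mbp*, a myelin gene, and the astrocyte marker *S100b* as higher, at 0.56 and 0.74 (edgeR adjusted p = 5.59e-05 and 0.00529). *Mbp* was also called higher there with no filter on low counts, at 0.45 (edgeR adjusted p = 0.000134). Among mesenchymal markers the block called *Col1a1* higher and *Pdgfrb* lower, at 0.26 and -0.41 (edgeR adjusted p = 0.0289 and 0.00864). With no filter on low counts *Col1a1*, *Col1a2*, *Dcn* and *Lum* were all called higher against Ctr, at 0.44 to 1.27, the setting that also called *Cdkn2b*. The part of these shifts in the values of the inhibitors was not tested.

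The inhibitors fell into patterns over the 11 libraries. Pearson's r of log2 CPM, given as a description over libraries that share embryos and groups, was 0.81 between *Cdkn1b* and *Cdkn2c*, 0.78 between *Cdkn1b* and *Cdkn1c* and 0.72 between *Cdkn2c* and *Cdkn2d*. It was 0.88 between the neighbours *Cdkn2a* and *Cdkn2b*, and -0.75 between *Cdkn1c* and *Cdkn2b*. *Cdkn1a* stood apart, with r between -0.17 and 0.39 to each of the other 6. Each inhibitor was also set beside 10428 other genes with a mean of at least 10 CPM (10429 for *Cdkn2a* and *Cdkn2b*). The genes given are the highest of these many candidates over 11 libraries that also hold the group differences. A top r from 0.910 to 0.985 was reached for every inhibitor, so a high r is not particular to one of them. Those most like *Cdkn2c* were *Kif4* (r = 0.985), *Ccna2* (0.981) and *Kif22* (0.971), which encode mitotic kinesins and cyclin A2. Those most like *Cdkn1b* were *Prom1*, a progenitor surface protein (0.983), *Npc2* (0.982) and *St13* (0.981), and those most like *Cdkn1a* were *Cox6b2* (0.972), *Rras* (0.958) and *Ercc5* (0.946). *Cdkn2b* was most like *Col18a1* (0.947), *Mmp2* (0.935) and *Galns* (0.927), that is, a collagen, a matrix protease and a lysosomal enzyme, and *Cdkn2a* most like *Galns* (0.910), *Acp2* (0.876) and *Igsf10* (0.865). For *Cdkn1c* they were *Hjurp* (0.955), *Zcchc8* (0.953) and *D16Ertd472e* (0.946), and for *Cdkn2d* *Rab22a* (0.959), *Itpk1* (0.952) and *Paip2b* (0.950).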

How the data were processed

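RNA of 11 NPC cultures was isolated with an RNeasy kit, depleted of ribosomal RNA and sequenced from stranded libraries. The authors mapped reads to GRCm38 with STAR 2.5.4b and counted, with featureCounts 1.5.0, uniquely mapped reads that met 1 Ensembl gene on the expected strand. The deposited values are these raw counts, so transcripts of one gene are summed and reads shared with copies are lost. Library sizes (26418249 to 33756875 counts) limit *Cdkn2a* most.

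Groups came from the sample labels, and symbols from GENCODE M21 for 53620 of 53801 identifiers. Genes were filtered with filterByExpr, scaled by TMM and tested with edgeR 4.0.16 (R 4.3.3) by the quasi-likelihood test, each comparison on its own groups, with Benjamini-Hochberg adjustment over all genes and a threshold of 0.05. SE is the log2 fold change over the root of F. CPM and RPKM used TMM over 11 libraries, log2 CPM a prior count of 2. Embryo numbers mark the same animal, and deviations of same-embryo libraries correlated (r from 0.328 to 0.425, beside -0.265 to 0.095 for different embryos), so a fit with the embryo as a block is given for *Smg6*-iKO against Ctr where it changed the call of an inhibitor or a listed gene. No 2 libraries of a group were duplicates (chi-square per gene from 11.1 to 43.2). Promoters were searched in Python 3.11.15.

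Alternatives were DESeq2 size factors, upper-quartile scaling, no filter, DESeq2 1.42.0, one fit of all libraries, plain library sizes and each library left out. The fits were tested on simulated data without embryo pairs. Of genes changed 1.5 times, 57% to 62% were called in a comparison, and of those changed 2 times 79.8% to 84.5%, with 8 to 12 false calls. A gene that did not pass the test can therefore still have changed. The members and lists were chosen with earlier results of these data known. Named genes were the members, *Smg6*, *Esr1*, a set of regulators and kinases, up to 3 called genes per list and comparison with the smallest adjusted p, and the 3 genes most like each member.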

Additional observations from a re-analysis of the deposited data

How the results depend on the processing

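For *Smg6*-iKO against Ctr + 4-OHT, 1 of 7 inhibitors was called in the reported fit and 2 with no filter on low counts, with DESeq2's Wald test and with all 11 libraries in one fit, where *Cdkn2b* was added at log2 fold changes of 0.68, 0.67 and 0.68. Over all genes 206 were called, but 418, 873 and 484 under these settings, and 66 to 174 when 1 library was left out, with 0 to 1 inhibitors (*Cdkn2c* at -0.48 to -0.36). For *Smg6*-iKO against Ctr, the 3 inhibitors called became 5 with no filter (*Cdkn2b* at 0.53, *Cdkn2d* at -0.23) and 5 with the embryo block (*Cdkn2b* at 0.40, *Cdkn2d* at -0.26). DESeq2's Wald test added *Cdkn2b* at 0.52, and one fit lost *Cdkn1c*, still at -0.55. Here 1663 genes were called, but 2714 with no filter, 796 in one fit and 3854 with the block, and 570 to 2524 when 1 library was left out, with 3 to 4 inhibitors, the fourth being *Cdkn2b* without *Smg6*-iKO embryo SMH_132; *Cdkn2b* then ranged from 0.41 to 0.62 and *Cdkn1a*, not called, from -0.071 to 0.15. For Ctr + 4-OHT against Ctr, 39 genes became 198 with no filter, 169 with DESeq2 and 60 in one fit, and 5 to 54 with 1 library left out, with no inhibitor called and values on both sides of 0 for *Cdkn1c* (-0.19 to 0.13), *Cdkn2c* (-0.047 to 0.030) and *Cdkn2d* (-0.11 to 0.066). *Cdkn2c*, at 0.000273 there, was -0.000597 with DESeq2 size factors, and with plain library sizes its difference changed sign at an exact permutation p of 0.8. Values that were not called and moved by over 1.5 times were *Cdkn1a* against Ctr + 4-OHT (0.22 to 0.50), and against Ctr *Cdkn2a* (0.092 without *Smg6*-iKO embryo SMH_127) and *Cdkn2d* (-0.13 without Ctr embryo SMH_128). In Ctr + 4-OHT against Ctr they were *Cdkn1a* (-0.46 to -0.17), *Cdkn1b* (-0.16 without Ctr embryo SMH_128) and *Cdkn2b* (-0.26 to -0.072). With the embryo block no call among the inhibitors or the listed genes was lost. The cause of these changes was not tested.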
